A study of Mus musculus with 8 samples.

Results

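Imprinted genes were followed in primary fibroblasts of mouse embryos (MEFs), which are taken into culture without immortalisation, that had or lacked the cryptochromes Cry1 and Cry2. A list of 36 imprinted genes was used, and a gene was counted as measured where at least 1 probe set of the array is annotated to it alone. This held for 27 of the 36, with 72 probe sets, among 13307 genes measured in all. H19 and Snrpn were left without a value because their probe sets are annotated to a pair of genes each. Rtl1, Zim1, Usp29, Phlda2, Slc22a18, Rasgrf1 and Peg13 were not analysed here. Where a gene has several probe sets, the brightest on average over the 8 arrays stands for it.

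The study has 4 wild-type (WT) lines and 4 Cry1-/-, Cry2-/- double-knockout (Cry DKO) lines, each an independent line on its own Affymetrix array. All lines came from embryos of near-C57BL/6J background, reached by more than 7 backcrosses of mice that started as BL6/129. They proliferated without synchronisation in medium with 10% serum at 3% oxygen and received no treatment, so a value averages over clock phases and cell cycle stages. Values are log2 signals, where a difference of 1 is a doubling, and every difference is Cry DKO minus WT with n = 4 lines per genotype.

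Genomic imprinting restricts transcription of a gene to the copy inherited from a given parent. The choice is set in the germ line as DNA methylation at a control region and is kept through cell division, and a single control region often governs a cluster of neighbouring genes. Many imprinted genes act on growth: paternally expressed genes such as Igf2, Peg3 and Mest tend to promote it, and maternally expressed genes such as Cdkn1c and Grb10 tend to restrain it. They are high in embryonic and placental tissue, and fibroblasts from embryos keep many of them active. The arrays measure total RNA of a gene and do not separate the parental copies, so a change in level is not a change of imprint. The amount of a transcript per cell and the share of cells that make it cannot be told apart in such cultures.

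Array medians lay between 6.78 and 6.79 and no array repeated another. Cry1 measured 6.79 ± 0.40 (SD, n = 4) for WT lines and 6.29 ± 0.31 in Cry DKO lines, and Cry2 had 7.20 ± 0.18 and 6.87 ± 0.20, differences that did not pass (limma adjusted p = 0.168 and 0.132). The position of those probes relative to the deleted parts was not known, so they do not check the labels. Of the fibroblast markers 9 of 12 lay above the signal floor of 6.06, the 40th percentile of all probe sets, while Dcn, Lum and Pdgfra lay below it in both genotypes. All 9 had negative differences, with a median of -0.07, and Fap fell by 0.69 (limma adjusted p = 0.0262). Of the 9, 3 were lower at an unadjusted p under 0.05 in limma, and for 2 the groups did not overlap. Over all 9511 tested genes 25.3% had such a p, 1173 higher and 1233 lower, and 8.44% were lower without overlap. The part of these marker differences in the imprinted genes' values was not tested. Macrophage markers were present as well: all 19 measured were above the floor and 11 were called higher, with Cd14 (0.92) and Lyz2 (0.83) of smallest p. All 19 were higher at an unadjusted p under 0.05 in limma, with a median of 0.80. Their mean level spanned 8.41 to 9.06 in WT lines against 9.10 to 10.1 in Cry DKO lines. All 11 measured proliferation markers rose, with Top2a (0.56) and Bub1 (0.54) of smallest p. Of all tested genes 4.95% were called higher. None of the 5 measured endothelial markers was above the floor. Of the 8 neural and glial markers measured 3 were above it, none of them passed in limma, with none at an unadjusted p under 0.05 either, and the defining markers Sox2, Sox10 and Dcx were below it. Epithelial markers above the floor were Krt18 (-0.30) and Krt19 (0.02), skeletal muscle had Des (-0.38), and of 4 adipocyte markers Cd36 rose by 1.14 and Fabp4 had a difference of 0.25. Values with the mean macrophage marker level as a covariate are given below with the called genes, and the part of proliferation was not tested. That macrophage level did not overlap between the genotypes. A fit with it therefore cannot cleanly separate genotype from macrophage content, and a call lost in it does not measure that content.

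The question of the comparison was at which imprinted genes the genotypes differ in RNA level. In this fit Nnat was the single gene of the list that passed, and it fell. Of the 27 measured genes 20 lay above the floor and were tested. None rose and 1 fell at an adjusted p under 0.05 in limma, a share of 5%, where 9.18% of all 9511 tested genes passed, 4.95% higher and 4.23% lower. At an unadjusted p under 0.05 there were 1 higher and 7 lower of the 20, where 25.3% of all tested genes passed, 1173 higher and 1233 lower. The differences lay mostly below 0: 15 of 20 were negative with a median of -0.17, against 51.5% negative and a median of -0.01 over all tested genes. Over all 27 measured genes, dim ones included, 19 were negative and the median was -0.19. The groups did not overlap for Nnat, Gnas, Cd81 and Impact, all lower in Cry DKO lines, where 8.44% of all tested genes were lower without overlap.

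**Figure D1:**
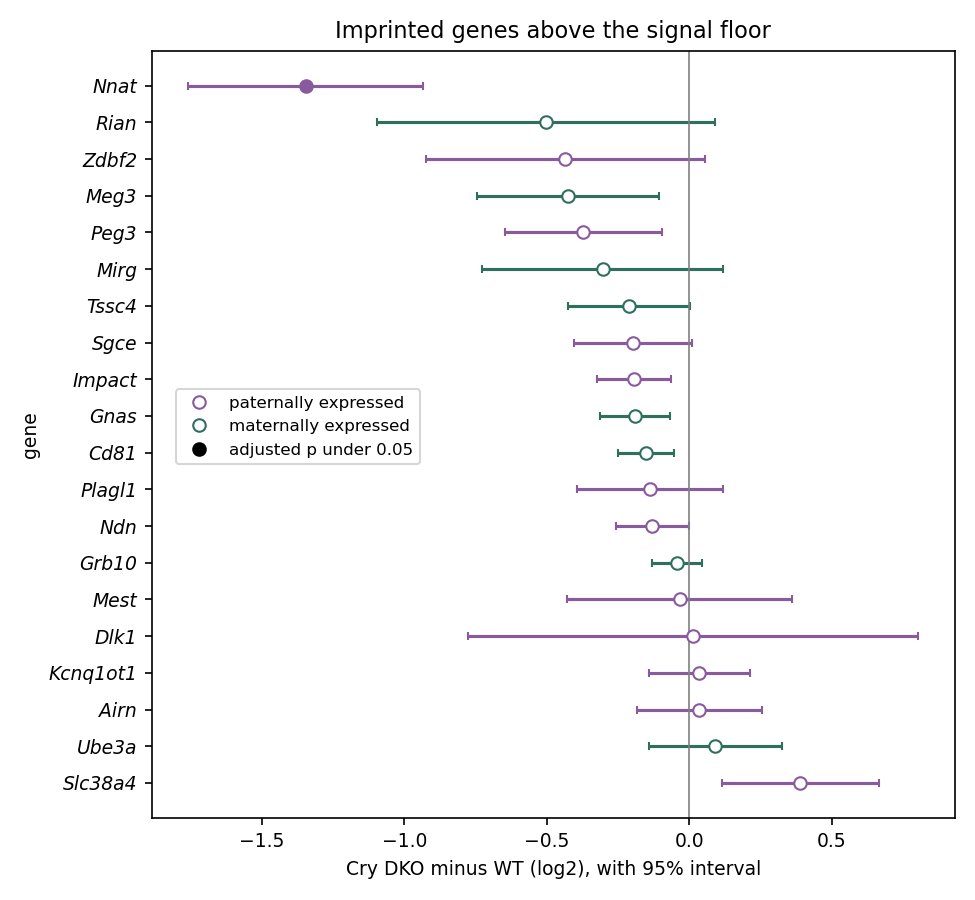
Difference between Cry DKO and WT lines (log2, x axis) for the 20 imprinted genes above the signal floor, with 95% intervals from limma; n = 4 lines per genotype, colour gives the expressed parental copy and a filled point an adjusted p under 0.05. Nnat stands at -1.35 and is the single filled point, and Slc38a4 at 0.39 is the highest.

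Nnat encodes neuronatin, a small membrane protein first known from developing brain, and is expressed from the paternal copy. Its signal was 7.91, 7.58, 7.76 and 7.52 in WT lines 1 to 4 and 6.37, 6.49, 6.77 and 5.77 in Cry DKO lines 1 to 4. Every WT line was above every Cry DKO line, and Cry DKO line 4 was lowest. The mean fell from 7.69 ± 0.18 to 6.35 ± 0.42 (SD, n = 4), a 2.54-fold lower signal in Cry DKO lines (difference -1.35, SE 0.19, limma adjusted p = 0.00277). The call held in each of the 8 fits that leave out 1 line, with differences from -1.49 to -1.15. With the average macrophage marker level entered as a covariate the difference was -1.34 and no longer passed (adjusted p = 0.124), a fit in which all genes together gave 11 higher and 15 lower calls. The array has a single probe set for Nnat.

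Nnat lies within an intron of Blcap, a gene of the same imprinted domain that encodes a small protein linked to apoptosis. Blcap had 9.49, 9.48, 9.46 and 9.40 in WT lines against 9.12, 9.14, 9.13 and 8.95 in Cry DKO lines, again without overlap. It fell by 0.37 (SE 0.06, limma adjusted p = 0.00604). Both genes of the domain were therefore lower in the same 4 lines, Nnat by the larger log2 difference.

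The stretches upstream of 3 start sites are shown for the gene that fell, for Meg3, whose probe sets all were lower, and for Slc38a4, which had the highest difference among tested genes of the list. Each is the 250 bases before the first listed start in RefSeq (build GRCm38.p6), 5′ to 3′ on the gene's strand, with every CG, the dinucleotide at which imprints are methylated, in capitals.
Nnat: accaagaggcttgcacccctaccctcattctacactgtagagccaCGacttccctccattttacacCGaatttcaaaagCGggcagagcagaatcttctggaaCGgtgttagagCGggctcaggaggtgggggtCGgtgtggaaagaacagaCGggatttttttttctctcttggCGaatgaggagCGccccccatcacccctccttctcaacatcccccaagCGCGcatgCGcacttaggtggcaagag
Meg3: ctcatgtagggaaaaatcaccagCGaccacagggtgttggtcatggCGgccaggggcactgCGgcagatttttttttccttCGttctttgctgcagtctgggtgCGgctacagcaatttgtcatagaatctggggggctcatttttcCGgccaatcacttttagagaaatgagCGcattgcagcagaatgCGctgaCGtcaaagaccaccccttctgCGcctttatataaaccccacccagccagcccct
Slc38a4: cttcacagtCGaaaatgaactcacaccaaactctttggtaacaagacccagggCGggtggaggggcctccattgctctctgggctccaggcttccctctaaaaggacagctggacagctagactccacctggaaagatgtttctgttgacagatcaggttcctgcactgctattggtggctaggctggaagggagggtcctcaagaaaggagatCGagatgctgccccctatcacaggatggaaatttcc
They lie at chr2:157559828-157560077 (+), chr12:109540746-109540995 (+) and chr15:97055957-97056206 (-). The printed stretches hold 12, 10 and 3 CG. In the whole windows of 300 bases, which run on past the start, the counts are 17, 13 and 5, where the median of all 32851 windows is 7. RefSeq windows were found for 24 of the 27 genes, and the median over their first windows was 14. The E-box CACGTG, the palindrome bound by CLOCK and ARNTL that cryptochromes repress, was in the windows of Plagl1 and Ppp1r9a, 2 of 36 windows or 5.56%, against 7.15% of all windows. It was in none of the windows of Nnat, Meg3 or Slc38a4. These counts describe the letters of the windows only.

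The Dlk1-Meg3 cluster holds the paternally expressed Dlk1, a ligand-like membrane protein that restrains adipocyte differentiation, and the maternally expressed noncoding RNAs Meg3, Rian and Mirg, which are thought to be read largely from the Meg3 promoter. None of the 4 genes passed, and the difference between Dlk1 and the maternal RNAs was not tested. Their differences were -0.43 for Meg3, -0.50 for Rian, -0.30 for Mirg and 0.01 for Dlk1 (limma adjusted p = 0.0930, 0.276, 0.359 and 0.989). The median over the cluster was -0.37.

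Meg3 is a long noncoding RNA that restrains proliferation in several tumour cell types. Its brightest probe set gave 12.09, 12.48, 12.18 and 12.91 in WT lines against 12.05, 12.12, 11.87 and 11.93 in Cry DKO lines. WT line 4 stood highest and the groups overlapped at WT line 1. That probe set has the suffix _x_at, which marks probes that can match other sequences too. The array holds 11 probe sets for Meg3, all above the floor, and all 11 were lower in Cry DKO lines, from -0.72 to -0.31. With each probe set of the array tested, where 6.81% of 16333 were called and 3.14% called lower, 4 of the 11 fell and 6 had groups that did not overlap. Over all tested genes, each by its brightest probe set, 8.44% were lower without overlap. That share was not computed over all probe sets. Probe sets of 1 gene read the same RNA and are not replicates of it. The probe set with the most negative difference had 7.76, 8.05, 7.67 and 8.38 in WT lines against 7.34, 7.06, 7.23 and 7.33 in Cry DKO lines (difference -0.72, SE 0.15, limma adjusted p = 0.0170 over all probe sets). All Cry DKO lines were below all WT lines there.

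WT line 4 had the highest WT value in all 11 probe sets of Meg3, all 4 of Rian and both of Mirg. Without it the Meg3 difference was -0.26 and the Mirg difference -0.08, and 3 of 11 Meg3 probe sets were called. Without Cry DKO line 3 only 2 of the 11 were called, and in the other 6 fits without a line 3 or 4.

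Rian, which hosts small nucleolar RNAs and microRNAs, had 10.57, 9.79, 10.26 and 10.88 in WT lines against 10.41, 10.25, 9.62 and 9.20 in Cry DKO lines. Its groups overlapped widely, with Cry DKO lines 3 and 4 lowest. All 4 probe sets were lower, from -0.50 to -0.25, and none passed, with none at an unadjusted p under 0.05 in limma. Leaving out 1 line gave differences from -0.70 (without WT line 2) to -0.28 (without Cry DKO line 4), and the macrophage covariate gave -1.42 (limma adjusted p = 0.0718). Mirg, the host of a large microRNA cluster, had 8.07, 8.35, 7.93 and 8.997 in WT lines against 7.93, 8.20, 7.88 and 8.12 in Cry DKO lines. Apart from WT line 4 its lines lay in 1 range.

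Dlk1 ran the other way in WT line 4: its signal was 9.0004, 9.18, 8.63 and 7.29 in WT lines against 8.86, 8.92, 8.43 and 7.93 in Cry DKO lines. The 4th line of each genotype was lowest, and WT line 4, with the least Dlk1, had the most Meg3, Rian and Mirg. Cry DKO line 4 did not repeat this: its Rian was the lowest of all lines (9.20). Its Meg3 (11.93) and Mirg (8.12) were below those of Cry DKO line 2 (12.12 and 8.20). With 4 lines a genotype no correlation was computed. Without WT line 4 the Dlk1 difference was -0.40, without Cry DKO line 1 -0.10 and without Cry DKO line 2 -0.12. Dlk1 had a within-group SD of 0.69, above that of 99.9% of all tested genes, and the 95% interval of its difference, -0.78 to 0.80, leaves room for changes of either sign.

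**Figure D2:**
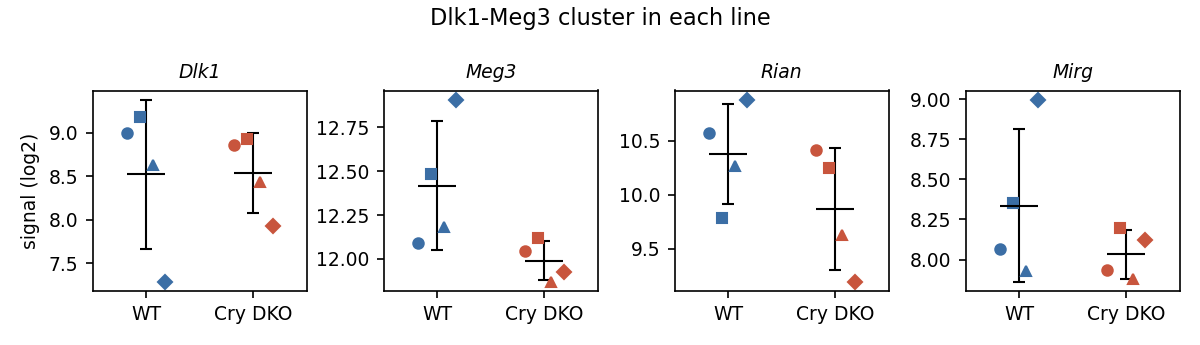
Signal (log2, y axis) of the 4 measured genes of the Dlk1-Meg3 cluster in each line; markers are lines 1 (circle), 2 (square), 3 (triangle) and 4 (diamond), bars are mean and SD, n = 4. WT line 4 is the lowest for Dlk1 (7.29) and the highest for Meg3 (12.91), Rian (10.88) and Mirg (8.997). Cry DKO line 4 is the lowest of its genotype for Dlk1 (7.93) and the lowest of all lines for Rian (9.20).

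Between the start and end of the genes Meg3, Rian and Mirg lie 3, 6 and 19 mature microRNAs of the RefSeq table (GRCm38.p6), with 27 distinct seeds among 28. Exons and introns were not told apart. The array does not measure these microRNAs. A few are printed to show what lies within these genes, 5′ to 3′ with the seed, bases 2 to 8, in capitals. The first lies in Meg3, the second in Rian and the others in Mirg, where mmu-miR-496a-5p and mmu-miR-453 hold the single seed that occurs in more than 1 of them.
mmu-miR-770-5p: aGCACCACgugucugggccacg
mmu-miR-370-3p: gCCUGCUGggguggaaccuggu
mmu-miR-410-3p: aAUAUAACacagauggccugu
mmu-miR-496a-5p: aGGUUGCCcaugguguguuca
mmu-miR-453: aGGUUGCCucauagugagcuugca

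Peg3, a paternally expressed zinc finger protein linked to growth and maternal behaviour, is the measured gene of the Peg3-Usp29 cluster. Its brightest probe set had 9.77, 9.92, 9.44 and 9.49 in WT lines against 9.44, 9.09, 9.11 and 9.50 in Cry DKO lines, which differed by -0.37 (SE 0.12, limma adjusted p = 0.0891). Cry DKO line 4 alone reached the range of the WT lines. All 3 probe sets were lower, from -0.70 to -0.34. The dimmest of them had 7.42, 7.36, 7.13 and 7.52 in WT lines against 6.95, 6.31, 6.58 and 6.80 in Cry DKO lines and fell by 0.70 (SE 0.14, limma adjusted p = 0.0184 over all probe sets), without overlap. That call ended without WT line 1, and without Cry DKO line 4 a second probe set was called.

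Slc38a4, a paternally expressed amino acid transporter, had 9.74, 9.20, 9.53 and 9.13 in WT lines against 9.78, 9.70, 9.98 and 9.69 in Cry DKO lines. Only WT line 1 reached the range of the Cry DKO lines. On average the lines differed by 0.39 (SE 0.13, limma adjusted p = 0.0775), and it passed without WT line 1 (0.50, adjusted p = 0.0293). Its second probe set had 8.55, 8.31, 8.65 and 8.46 in WT lines against 8.97, 8.78, 9.24 and 9.44 in Cry DKO lines. It rose by 0.62 (SE 0.13, limma adjusted p = 0.0209 over all probe sets, where 3.67% were called higher), without overlap. That call ended without WT line 2 and without Cry DKO line 3. Slc38a4 thus had both probe sets higher, opposite in sign to Nnat, Peg3 and Meg3.

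**Figure D3:**
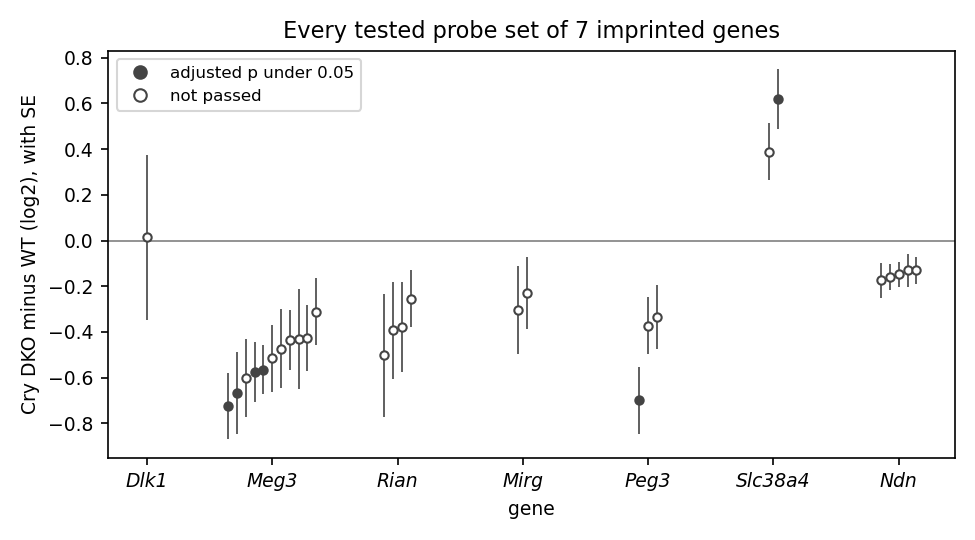
Difference between Cry DKO and WT lines (log2, y axis) with SE for each tested probe set of 7 imprinted genes; filled points passed an adjusted p of 0.05 when every probe set of the array was tested, n = 4 lines per genotype. All 11 Meg3 and all 3 Peg3 probe sets lie below 0, with 4 and 1 filled, and both of Slc38a4 lie above it, with 1 filled.

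Among bright genes small differences stood out from a small spread. Gnas, whose main transcript encodes the stimulatory G protein alpha subunit of cAMP signalling, had 12.99, 13.04, 12.97 and 12.93 in WT lines against 12.89, 12.80, 12.85 and 12.64 in Cry DKO lines, which differed by -0.19 (SE 0.06, limma adjusted p = 0.0564). It passed without Cry DKO line 1 (-0.22, adjusted p = 0.0471). Its other tested probe set gave -0.28 with overlapping groups, and a further one below the floor gave 0.26. The locus makes transcripts from both parental copies, and Gnas itself is maternal in some tissues only. Cd81, a tetraspanin of the cell surface, had 12.54, 12.63, 12.61 and 12.67 in WT lines against 12.51, 12.47, 12.47 and 12.39 in Cry DKO lines, which differed by -0.15 (SE 0.04, adjusted p = 0.0544). After quantile normalisation Cd81 passed (-0.15, limma adjusted p = 0.0445), while Gnas was further from the threshold (-0.15, adjusted p = 0.118). With no intensity trend neither passed (limma adjusted p = 0.142 for Cd81 and 0.1295 for Gnas). Impact, an inhibitor of the GCN2 stress kinase that is paternally expressed in rodents, had 9.76, 9.77, 9.65 and 9.80 in WT lines against 9.49, 9.51, 9.58 and 9.62 in Cry DKO lines, which differed by -0.19 (SE 0.06, adjusted p = 0.0637). Its second probe set gave 0.06. By their brightest probe sets all 3 genes had lower signals in every Cry DKO line than in any WT line, and none passed the threshold.

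**Figure D4:**
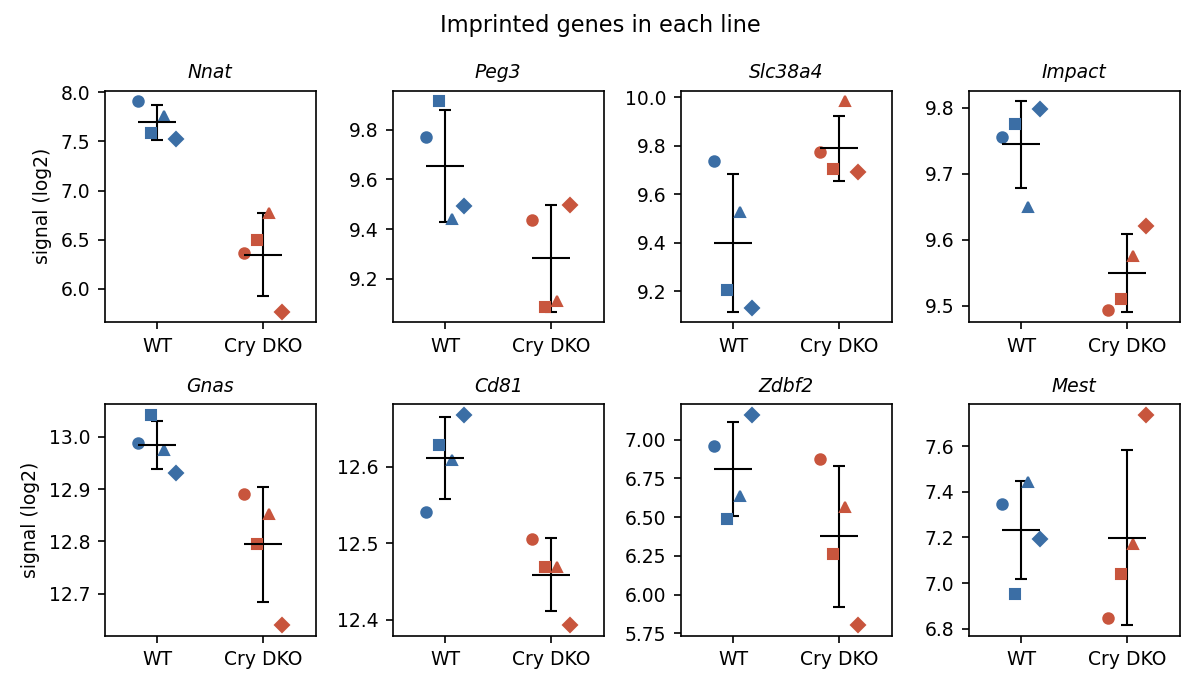
Signal (log2, y axis, each panel with its own range) of 8 imprinted genes in each line; markers are lines 1 (circle), 2 (square), 3 (triangle) and 4 (diamond), bars are mean and SD, n = 4. The groups are apart for Nnat, Impact, Gnas and Cd81 and overlap for Peg3, Slc38a4, Zdbf2 and Mest.

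In the Kcnq1-Kcnq1ot1 cluster the paternally expressed noncoding RNA Kcnq1ot1, which silences the protein-coding genes on its own copy, had 8.51 ± 0.04 in WT lines against 8.54 ± 0.15 in Cry DKO lines (SD, n = 4). Its difference of 0.03 has a 95% interval of -0.14 to 0.21, and its 3 tested probe sets gave 0.03 to 0.08. Tssc4, a spliceosome assembly factor that is maternal in placenta, differed by -0.21 (limma adjusted p = 0.206). Ascl2, a transcription factor of trophoblast, was far below the floor (1.80 ± 1.27 and 2.19 ± 1.30). Of genes of the same domain outside the list of 36, Cdkn1c and Osbpl5 fell and others did not. Nap1l4 had a difference of 0.07 and Dhcr7 of 0.29 (limma adjusted p = 0.594 and 0.273), and Tspan32, below the floor, of 1.02. Cdkn1c, a maternally expressed inhibitor of cyclin-dependent kinases, had 8.92, 9.11, 9.09 and 8.68 in WT lines against 7.66, 7.60, 8.07 and 7.78 in Cry DKO lines, without overlap. It fell by 1.17 (SE 0.12, limma adjusted p = 0.000477). Osbpl5, a lipid transfer protein that is maternal in placenta, fell by 0.42 (SE 0.10, limma adjusted p = 0.0236), from 9.12, 8.95, 9.13 and 8.98 in WT lines to 8.78, 8.80, 8.50 and 8.44 in Cry DKO lines, without overlap. The call of Osbpl5 ended without WT line 1, without WT line 3 and without Cry DKO line 3. Whether the differences of Cdkn1c and Osbpl5 are linked to Kcnq1ot1 was not tested.

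In the Snrpn-Ube3a cluster, Ndn, necdin, a growth-restraining protein of the MAGE family, averaged 11.09 ± 0.08 in WT lines against 10.96 ± 0.08 in Cry DKO lines (difference -0.13, SE 0.06, limma adjusted p = 0.194). All 6 of its probe sets were lower, from -0.17 to -0.13, and 5 were above the floor. With each probe set tested in limma none of the 5 passed, and 3 had an unadjusted p under 0.05. In the main limma fit, by gene, the brightest had an unadjusted p of 0.0479. Ube3a, a ubiquitin ligase that is imprinted in neurons, had a difference of 0.09 (95% interval -0.14 to 0.32), and its 4 tested probe sets gave -0.19 to 0.09. Magel2 and Mkrn3 were below the floor. Mkrn3, a makorin protein, had 4.47, 4.22, 4.34 and 4.34 in WT lines against 3.27, 3.90, 3.66 and 4.09 in Cry DKO lines, without overlap but in the dim range. It was not tested; a fit with no floor gave an adjusted p of 0.248. The median of the cluster was -0.02.

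In the Peg10-Sgce cluster the 1 gene above the floor, Sgce, which encodes epsilon-sarcoglycan, averaged 9.13 ± 0.08 in WT lines against 8.93 ± 0.20 in Cry DKO lines (difference -0.20, SE 0.09, limma adjusted p = 0.220). It passed without Cry DKO line 4 (-0.29, adjusted p = 0.0495) and had a difference of 0.03 with the macrophage covariate. Peg10, derived from a retrotransposon and needed in placenta, and the dim genes Ppp1r9a and Asb4 had differences of -0.46, -0.20 and -0.54 with overlapping groups. Further probe sets, all below the floor, gave 0.23 and 0.11 for Ppp1r9a, -0.01 for Asb4 and -0.04 for Sgce.

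The genes that stand alone in this list varied in both directions. Zdbf2, a paternally expressed zinc finger gene, had 6.96, 6.49, 6.64 and 7.16 in WT lines against 6.87, 6.26, 6.57 and 5.80 in Cry DKO lines (difference -0.43, limma adjusted p = 0.253), where Cry DKO line 4 was lowest; without it the difference was -0.24. Plagl1, a zinc finger factor that regulates other imprinted genes, had a difference of -0.14 (95% interval -0.40 to 0.12), and -0.02 without WT line 3. Its other probe set, below the floor, gave -0.71. Grb10, an adaptor that restrains insulin and growth factor signalling, averaged 12.45 ± 0.03 in WT lines against 12.41 ± 0.03 in Cry DKO lines, with a 95% interval of the difference from -0.13 to 0.04. Its other probe sets gave 0.02 and -0.08. Mest, a paternally expressed hydrolase-like protein, had -0.03 (interval -0.43 to 0.36), and Airn, the noncoding RNA that silences Igf2r on its own copy, had 0.04 (interval -0.18 to 0.25). The other tested probe set of Airn gave 0.24, and those below the floor 0.0017 and 0.093. Nap1l5 was dim, with a difference of 0.12.

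Paternally and maternally expressed genes were compared by counts and medians. Of 12 tested paternally expressed genes 8 had negative differences, with a median of -0.13, and 1 was called, Nnat. At an unadjusted p under 0.05 in limma 4 of the 12 were lower and 1 higher. Of 8 tested maternally expressed genes 7 were negative, with a median of -0.20, and none was called in limma. Of these 8, 3 were lower at an unadjusted p under 0.05 (Meg3, Gnas and Cd81). Over all tested genes 25.3% had such a p. Leaving out genes whose imprint is known in some tissues only, 4 maternally expressed genes remained, 3 of them in the Dlk1-Meg3 cluster, with a median of -0.37. Those 3 are neighbours thought to share a promoter, so they may not be separate cases, and the difference between the classes was not tested.

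The genes also differed in how much independent lines varied. The median SD within genotypes was 0.13 over all tested genes and 0.20 over the 20 imprinted genes, of which 14 lay above the median of all. After Dlk1 (0.69) the widest were Rian (0.52), Zdbf2 (0.39), Mirg (0.35), Nnat (0.32) and Mest (0.31), each above 94.7% or more of all tested genes. At the other end Grb10 (0.03) and Cd81 (0.05) lay at percentiles 0.60 and 4.30 of all tested genes.

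Of 40 other imprinted genes listed, 25 were measured and 21 tested; 2 rose and 3 fell, where 4.95% of all tested genes rose and 4.23% fell, and the median was 0.00. Besides Cdkn1c, Blcap and Osbpl5, Igf2, the paternally expressed growth factor that shares its control region with H19, was higher in every Cry DKO line, with 9.39, 9.25, 9.34 and 8.79 in WT lines against 9.89, 9.90, 9.71 and 10.30 in Cry DKO lines. It rose by 0.76 (SE 0.14, limma adjusted p = 0.0109). Commd1, a protein of copper and endosome handling, rose by 0.24 (limma adjusted p = 0.0459), a call that held without WT line 2 and ended without any other line, and that also ended with no signal floor (adjusted p = 0.0540), with each probe set tested (0.0562), with no intensity trend (0.0741) and with the probe set of highest variance (0.12, adjusted p = 0.528). Igf2r, the maternally expressed receptor that clears Igf2, averaged 10.58 ± 0.33 over WT and 10.46 ± 0.07 over Cry DKO lines (SD, n = 4), and its difference of -0.12 did not pass (limma adjusted p = 0.603). Its probe set of highest variance gave 0.15. With the macrophage covariate the 5 calls among these genes ended, while the differences were 0.77 for Igf2, -0.38 for Blcap, -0.66 for Osbpl5, 0.36 for Commd1 and -0.83 for Cdkn1c (limma adjusted p from 0.0652 for Cdkn1c to 0.184 for Igf2).

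Of 30 genes whose products set or keep imprints, 26 were measured and 22 tested; 4 rose and none fell, with 1 lower at an unadjusted p under 0.05 in limma, where 4.95% of all tested genes rose. Uhrf1, which brings the maintenance methyltransferase to newly copied DNA, had 8.81, 8.84, 8.50 and 8.55 in WT lines against 9.30, 9.20, 9.20 and 9.38 in Cry DKO lines and rose by 0.60 (SE 0.09, limma adjusted p = 0.00341). Hells, a chromatin remodeller needed for DNA methylation, rose by 0.59 (SE 0.09, adjusted p = 0.00288). Smchd1, a silencing factor at imprinted clusters and the inactive X, rose by 0.38 and Ezh2, the Polycomb methyltransferase, by 0.31. The call of Smchd1 ended without WT line 1 and without WT line 2, and that of Ezh2 held without WT line 1 and without Cry DKO line 2 and ended without any other line. The call of Ezh2 also ended with no signal floor, each probe set tested, the probe set of highest variance, no intensity trend and array weights (limma adjusted p from 0.0520 to 0.0693). With the macrophage covariate the 4 calls ended, while the differences were 0.61 for Uhrf1, 0.57 for Hells, 0.40 for Smchd1 and 0.31 for Ezh2 (limma adjusted p from 0.137 for Uhrf1 to 0.329 for Ezh2). Dnmt1, the maintenance methyltransferase, differed by 0.33 (SE 0.11, limma adjusted p = 0.0921). Ctcf, the insulator protein of the Igf2-H19 region, had 0.14 and Trim28, a corepressor that protects imprints in the early embryo, had 0.09, and neither passed. Zfp57, its partner, was near the floor at 6.08 ± 0.42 and 5.66 ± 0.30. Proliferation markers, as given above, had a median difference of 0.54 in these lines, and their part was not tested; Uhrf1, Hells and Dnmt1 are known to be highest in S phase.

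**Figure D5:**
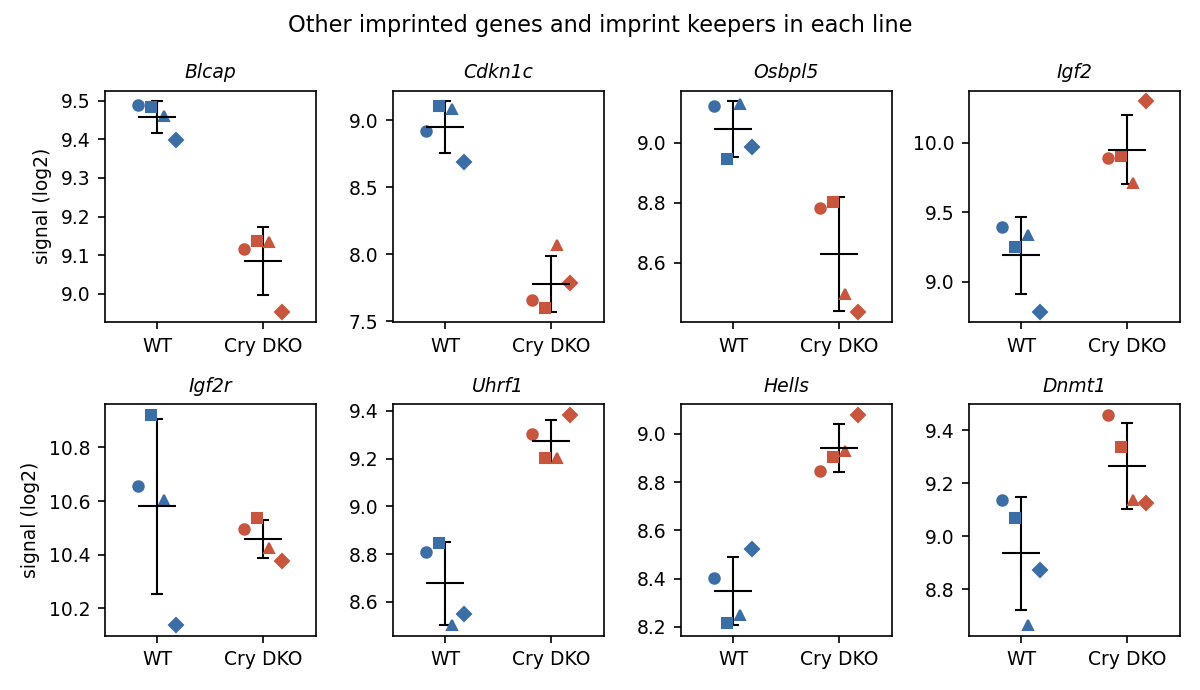
Signal (log2, y axis, each panel with its own range) of 5 other imprinted genes and 3 genes that keep DNA methylation, in each line; markers are lines 1 (circle), 2 (square), 3 (triangle) and 4 (diamond), bars are mean and SD, n = 4. Blcap, Cdkn1c and Osbpl5 are lower and Igf2, Uhrf1 and Hells higher in every Cry DKO line, while Igf2r and Dnmt1 overlap.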

How the data were processed

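RNA of 8 lines was labelled from 5 ug of total RNA and measured on an Affymetrix 3' array, per the labels' protocols. The authors deposited log2 signals per probe set; base 2 is inferred from the range (0.0675 to 14.3). The submitters' processing notes name GCOS, with no version. How probes were summarised and normalised was not given in the sources used here. Equal array medians were taken as normalised, so a global change cannot be seen.

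Of 30506 probe sets, 24838 had 1 gene, 658 several, 4949 are unnamed here and 61 are controls; symbols were updated through GRCm38.p6 identifiers (24757 found). Means under 6.06 (40th percentile) were left out and the brightest probe set kept per gene, which gave 9511 genes. The test was limma (version 3.58.1, R 4.3.3; intensity trend, Benjamini-Hochberg over all genes, threshold 0.05, 95% intervals); the script was tested on simulated data. The number of arrays limits precision. Parental copy and cluster were assigned from general knowledge. Members, lists and tests were chosen with earlier results of these data known. All members may be named; of other imprinted genes those called and Igf2, Cdkn1c and Igf2r; of the imprint keepers up to 6 called and Dnmt1, Uhrf1, Zfp57, Trim28 and Ctcf; of marker lists up to 2 of smallest p. Dcn, Lum, Pdgfra, Sox2, Sox10, Dcx, Nap1l4, Dhcr7 and Tspan32 were named after their values were seen. Alternatives were other filters, normalisations, probe set rules, empirical Bayes settings, array weights, a replicate block, a threshold of 0.10, a macrophage covariate and each line left out.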

Additional observations from a re-analysis of the deposited data

Results flagged for a closer look

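Among 54 groups of 4 lines (27 genes, WT and Cry DKO), 1 held a line far from the others: Kcnq1ot1 in WT line 3 had 8.44, against 8.52 to 8.53 in the other WT lines. The gap was 0.836 of the range of the group, above Dixon's critical value for 4 values. Chance marks about 1 in 20 groups.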

How the results depend on the processing

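Nnat was called lower in each of the 8 fits without 1 line and in the alternatives that tested it, except with the macrophage covariate; a filter at the 60th percentile removed it. The number of imprinted genes called lower, 1 in the main setting, was 0 under that filter and under the covariate, 2 after quantile normalisation and with the replicate block, 3 with each probe set tested or with the probe set of highest variance, 6 at a threshold of 0.10, and 1 to 2 without 1 line. The number called higher was 1 with each probe set tested, the probe set of highest variance, the replicate block and a threshold of 0.10, and 0 to 1 without 1 line. The genes gained were Meg3, Peg3 and Slc38a4 by the choice of probe set, Cd81 by quantile normalisation, and Gnas and Slc38a4 by the block.

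Over all genes 731 were higher and 706 lower at a threshold of 0.10, 11 and 15 with the covariate, and 225 to 358 and 161 to 329 without 1 line. Other imprinted genes called were 0 with the covariate and 3 to 5 without 1 line; genes that keep imprints were 7 at 0.10, 0 with the covariate and 2 to 4 without 1 line.

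The median of maternally expressed genes was -0.29 with the covariate and -0.37 without tissue-limited genes. Taken over tested probe sets instead of genes it was -0.31, where Meg3 alone supplies 11. Cluster medians over all probe sets instead of genes were -0.12 (Peg10-Sgce) and -0.13 (Snrpn-Ube3a, where Ndn and Ube3a supply 6 each). By gene they were -0.027 (Peg10-Sgce), -0.16 (Snrpn-Ube3a) and -0.18 (Kcnq1-Kcnq1ot1) with the probe set of highest variance, and -0.30 (Kcnq1-Kcnq1ot1) with the covariate. Differences of opposite sign were -0.19 (Ube3a), 0.055 (Impact) and 0.15 (Igf2r) for the probe set of highest variance, and 0.12 (Mest), -0.043 (Dlk1), 0.033 (Sgce) and -0.084 (Kcnq1ot1) with the covariate. The covariate also moved the differences of Rian to -1.42, Zdbf2 to -0.93, Tssc4 to -0.43, Plagl1 to -0.27, Ndn to -0.07, Airn to 0.19 and Dnmt1 to 0.12, none of them called there. Without 1 line they spanned -0.21 to 0.083 (Mest), -0.40 to 0.23 (Dlk1), -0.018 to 0.16 (Ube3a), -0.034 to 0.075 (Kcnq1ot1) and -0.028 to 0.10 (Airn). Except where fewer genes or lines were tested, the cause was not tested. Fits of each probe set without 1 line were chosen after seeing the data.

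The labels do not say that replicate numbers mark a shared litter or day. Deviations of same-numbered lines correlated at 0.36, 0.12, 0.23 and -0.01, and 3 of 4 WT lines matched best the Cry DKO line of their number, a hint of pairing for numbers 1 to 3 and not for 4. Under the replicate block Nnat, Gnas and Slc38a4 were called (limma adjusted p = 0.00293, 0.0356 and 0.0291), and Dnmt1 passed (0.0184). Dim signals limit the 7 genes below the floor.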
